A study of Homo sapiens with 8 samples.

Results

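The genes described here are the protein-coding genes of human chromosome 20 that start at or beyond 31 Mb on GRCh38, which is most of the long arm. A gene was included when its counts over the 8 libraries summed to at least 10 and its symbol did not start with RPL or RPS, did not have the form of a collagen chain name, and was not SNAI1, AURKA, TPX2 or UBE2C. Of the 60617 genes in the count table, 278 met the rule. The annotation held 358 protein-coding genes in the interval, of which 74 had fewer than 10 counts and 6 were left out by symbol. The genes just under the count minimum had sums of 8 or 9, and those just over it had 11 or 12. The first member, HM13, starts at chr20:31514410, and the last one ends at chr20:64287821 (GENCODE 29 on GRCh38). The interval was chosen because transcript levels in it were seen to differ between sgKMT2B and the other groups of this same series, so all values that involve sgKMT2B are a description here and carry no test.

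The study profiled poly(A) RNA of HEK293T, a human embryonic kidney line transformed with adenoviral and SV40 genes, in 4 groups of 2 libraries. WT is the unedited line, and the knockout derivatives are labelled sgKDM5C, sgKDM6A and sgKMT2B after the gene that the guide RNA was directed at. All groups share the HEK293T background and no other agent is named. Nothing used here says where each guide cuts, whether a derivative is 1 clone or a pool, or whether the 2 libraries of a group came from separate cultures. The p-values therefore reflect the scatter among these libraries alone, and that scatter may be technical.

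The transcript output of a gene usually scales with the number of its DNA copies, so a run of neighbouring genes that moves together by a similar ratio is the RNA pattern by which regional copy changes are commonly recognised, while single genes can depart from it through feedback or changes of their own promoters. Gains of the long arm of chromosome 20 are common in cultured human cells and in colorectal tumours, and the arm carries the survival gene BCL2L1. HEK293T is known for an abnormal karyotype. KMT2B is a histone methyltransferase that places methyl groups on lysine 4 of histone H3 and binds unmethylated CG dinucleotides through its CXXC domain. KDM5C removes methyl groups from the same lysine, and KDM6A removes them from lysine 27. DNA copy number was not measured in these libraries, so its part in any value below was not tested.

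RefSeq promoter entries were matched to 202 of the 278 members, and 155 of these entries read into an annotated transcript of the gene on its own strand. Bases upstream of the RefSeq start site are shown for 6 of them. They are shown because KMT2B binds CG dinucleotides and these genes stand for the different patterns described below. Bases inside the GENCODE gene were left out for GGT7, TPD52L2 and MAPRE1. The stretch ends 151 bases before the GENCODE start for CEBPB, 10 for NCOA5 and 8 for MOCS3. GGT7 was lower in sgKMT2B than in every other group, TPD52L2 was among the members that differed least, MAPRE1 and CEBPB were higher by a small and a large amount, and NCOA5 and MOCS3 were low in WT alone. The sequences are from RefSeq (GRCh38.p14), 5′ to 3′ on the strand of the gene, with each CG in capitals. They lie at chr20:34872861-34873106 on the minus strand for GGT7, chr20:63865020-63865227 on the plus strand for TPD52L2, chr20:32819704-32819892 on the plus strand for MAPRE1, chr20:50190333-50190582 on the plus strand for CEBPB, chr20:46089963-46090212 on the minus strand for NCOA5 and chr20:50958568-50958817 on the plus strand for MOCS3.
GGT7: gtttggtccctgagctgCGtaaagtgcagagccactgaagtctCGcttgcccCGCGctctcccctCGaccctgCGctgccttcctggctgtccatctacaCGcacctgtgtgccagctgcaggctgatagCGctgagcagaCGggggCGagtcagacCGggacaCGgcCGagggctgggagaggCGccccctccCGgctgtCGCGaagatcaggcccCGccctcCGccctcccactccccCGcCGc
TPD52L2: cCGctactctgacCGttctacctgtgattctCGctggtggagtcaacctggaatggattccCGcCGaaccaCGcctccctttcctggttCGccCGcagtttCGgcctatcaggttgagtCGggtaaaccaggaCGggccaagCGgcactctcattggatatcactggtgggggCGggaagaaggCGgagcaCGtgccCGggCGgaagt
MAPRE1: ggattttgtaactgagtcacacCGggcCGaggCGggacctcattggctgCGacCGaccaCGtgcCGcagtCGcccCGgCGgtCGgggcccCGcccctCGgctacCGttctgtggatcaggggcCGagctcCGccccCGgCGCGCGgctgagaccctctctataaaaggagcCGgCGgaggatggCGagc
CEBPB: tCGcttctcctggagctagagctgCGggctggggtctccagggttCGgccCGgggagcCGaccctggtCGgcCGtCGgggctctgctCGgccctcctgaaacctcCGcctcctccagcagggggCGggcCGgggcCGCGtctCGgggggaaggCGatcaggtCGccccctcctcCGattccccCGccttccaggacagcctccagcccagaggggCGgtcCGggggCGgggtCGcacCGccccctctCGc
NCOA5: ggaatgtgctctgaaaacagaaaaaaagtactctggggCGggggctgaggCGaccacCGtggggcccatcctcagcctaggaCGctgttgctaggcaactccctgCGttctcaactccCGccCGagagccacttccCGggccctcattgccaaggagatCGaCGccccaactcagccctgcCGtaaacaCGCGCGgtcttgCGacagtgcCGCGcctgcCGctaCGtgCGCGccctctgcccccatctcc
MOCS3: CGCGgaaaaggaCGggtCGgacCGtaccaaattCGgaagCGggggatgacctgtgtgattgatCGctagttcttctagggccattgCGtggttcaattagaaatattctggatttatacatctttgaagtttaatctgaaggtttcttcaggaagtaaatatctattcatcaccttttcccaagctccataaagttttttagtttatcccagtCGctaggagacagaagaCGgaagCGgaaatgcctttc
The number of CG dinucleotides, counted once since the letters read the same on both strands, was 21 in 246 bases for GGT7, 17 in 208 bases for TPD52L2, 23 in 189 bases for MAPRE1 and 25 in 250 bases for CEBPB. NCOA5 held 21 and MOCS3 held 12, each in 250 bases. Among 27305 RefSeq promoters read over the same length, the share that held at least as many was 29.2% for GGT7, 28.8% for TPD52L2, 10.5% for MAPRE1, 21.3% for CEBPB, 29.8% for NCOA5 and 48.3% for MOCS3. The GGT7 stretch also holds an annotated exon of a transcript of its divergent neighbour ACSS2. A comparison of CG content between classes of members was void, because only 157 of the 199 better measured members (78.9%) had an entry.

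WT replicate 2 was the shallowest and thus least precise library, with 15868353 counts, and the deepest held 27591724. The KMT2B transcript stood at 63.0 and 75.5 CPM (read counts relative to the TMM-scaled total of the library) in the sgKMT2B libraries and at 113 to 146 CPM in the 6 others. KDM6A stood at 10.3 and 11.5 CPM in its own knockout against 50 to 65.8 CPM elsewhere, and KDM5C at 331 and 312 CPM against 379 to 471. Of 5 markers of the kidney line, VIM (400 to 647 CPM), KRT18 (59.9 to 100 CPM), KRT8 (5.15 to 265 CPM) and PAX2 (7.77 to 17.4 CPM) were detected in every library, whereas LHX1 was at or under 0.198 CPM. KRT8 varied with the group, at 6159 and 6712 counts in sgKMT2B, 130 and 157 in sgKDM6A and 943 to 1449 in the rest. Over 9 markers of other cells, the summed level was 40.1 to 47.4 CPM in sgKMT2B, 53.4 to 54.4 in WT, 31.4 to 35.0 in sgKDM5C and 23.0 to 26.3 in sgKDM6A, most of it from COL1A1 (22.3 to 52.8 CPM). LUM reached 31 and 53 counts in sgKMT2B and 0 to 5 elsewhere, CD3E was at 0 in all libraries, and GFAP lay at 0.643 to 2.54 CPM. PTPRC, PECAM1, CDH5, ALB and NPHS1 were at or under 0.341 CPM. The part of these differences in the values below was not tested.

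The distal genes of chromosome 20 were higher in sgKMT2B by a similar ratio along the whole interval, while the genes of the same chromosome before 31 Mb were centred near 0. Among the 199 members with a mean of at least 5 CPM, the median fitted log2 change of sgKMT2B was 0.40 against WT (interquartile range 0.23 to 0.62), 0.46 against sgKDM5C (0.28 to 0.65) and 0.46 against sgKDM6A (0.24 to 0.66). These medians equal ratios of 1.32, 1.37 and 1.38. On this log2 scale a ratio of 5 to 4 is 0.32, 4 to 3 is 0.42 and 3 to 2 is 0.58. The change was positive for 182 of the 199 members against WT, for 185 against sgKDM5C and for 190 against sgKDM6A. Over all 11249 genes of at least 5 CPM the same medians were 0.00, 0.04 and 0.00, and over the 98 chromosome 20 genes before 31 Mb they were 0.03, 0.01 and -0.07.

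**Figure D1:**
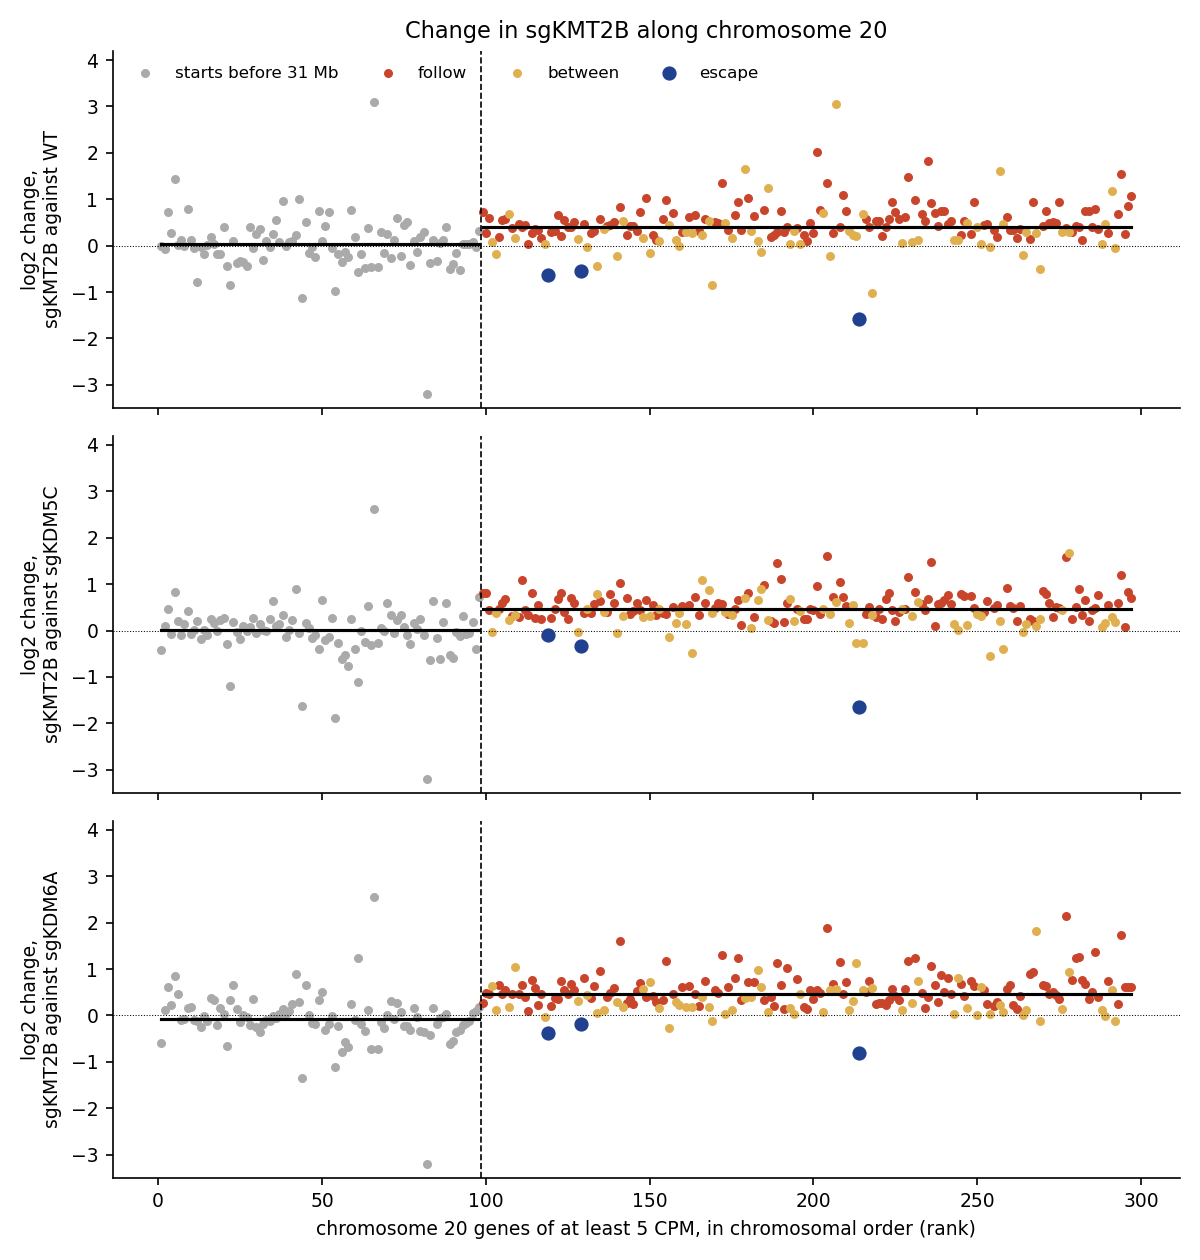
Fitted log2 change of sgKMT2B against WT, sgKDM5C and sgKDM6A (vertical axes) for chromosome 20 genes of at least 5 CPM in chromosomal order (horizontal axis, rank), with horizontal black lines at the median of the genes before and beyond 31 Mb and a dashed line at 31 Mb. Values beyond 3.2 are drawn at 3.2. The median line steps from 0.03 to 0.40 against WT, and the 3 large blue points, EYA2, GGT7 and ZNF341, lie under 0 in every panel.

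Both sgKMT2B libraries showed the shift to a like extent. Relative to the mean log2 level of the 6 libraries of WT, sgKDM5C and sgKDM6A, the median member stood at 0.462 and 0.442 in the sgKMT2B libraries. In WT it stood at 0.020 and 0.064, in sgKDM5C at 0.024 and -0.038, and in sgKDM6A at 0.028 and -0.059. The 278 members together took 2.37% and 2.35% of all counts in the sgKMT2B libraries and 1.69% to 1.85% in the 6 others, with no overlap. Members called by the edgeR quasi-likelihood test (adjusted p under 0.05, either direction) numbered 131 of the 245 tested against WT, where 28.1% of all 17527 genes were called. Against sgKDM5C they numbered 136 (22.1% of all genes) and against sgKDM6A 131 (24.9% of all genes). These counts come from the contrasts that chose the genes and nothing is read from them. The count against WT was lower without sgKMT2B replicate 1, a fit for which no share of all genes is given.

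**Figure D2:**
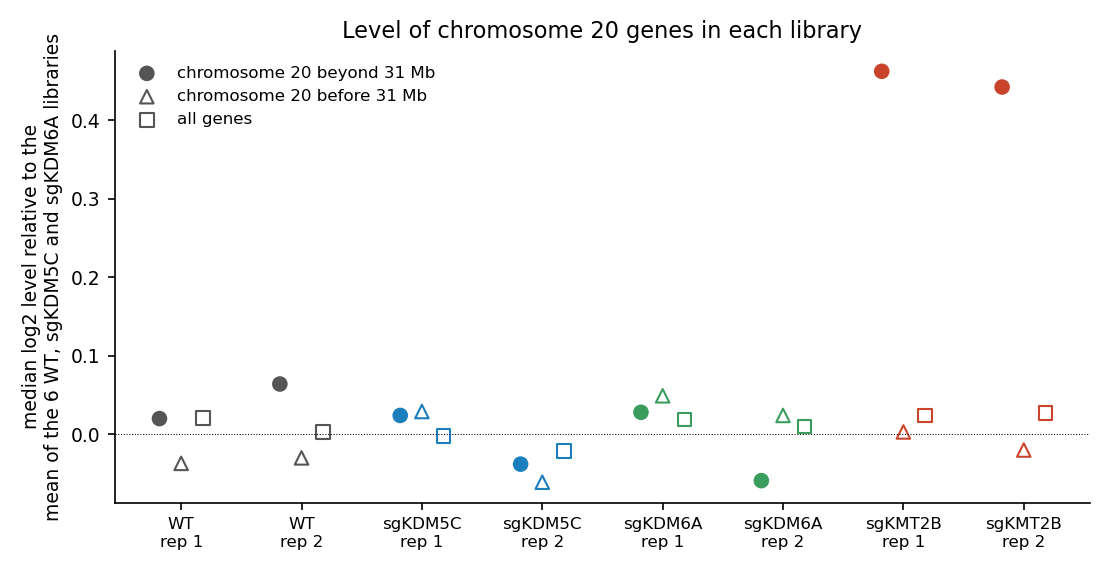
Median log2 level in each library (horizontal axis) relative to the mean of the 6 WT, sgKDM5C and sgKDM6A libraries (vertical axis), for the members, for chromosome 20 genes before 31 Mb and for all genes, each with a mean of at least 5 CPM. The members reach 0.462 and 0.442 in the sgKMT2B libraries and lie between -0.059 and 0.064 in the others.

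The level was raised along the whole arm. In windows of 5 Mb by gene start, the median log2 change of members against WT was 0.33 at 30 to 35 Mb (33 genes), 0.38 at 35 to 40 Mb (40 genes), 0.33 at 40 to 45 Mb (23 genes) and 0.41 at 45 to 50 Mb (33 genes). It was 0.70 at 50 to 55 Mb and 0.42 at 55 to 60 Mb, windows that held only 13 and 18 genes, and 0.40 in the last window (39 genes). Before 31 Mb the windows lay between -0.14 and 0.11, and the only one of them with at least 20 genes, from 0 to 5 Mb, had a median of 0.04 over 45 genes. The median was 0.40, 0.41 and 0.41 in the low, middle and high groups of members by mean level, and 0.40 on either strand. It was also 0.40 for the 92 members that overlap another gene with counts and for the 107 that do not, which matters because the counting has a strand setting not given in the sources used here.

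Where the step lies could be placed only roughly. The last genes of at least 5 CPM before 31 Mb were ABHD12, GINS1, NINL and NANP. Their log2 changes against WT were 0.03, 0.08, -0.03 and 0.31, and NANP starts at chr20:25612935. The first members were HM13, a signal peptide peptidase (0.73), ID1, an inhibitor of basic helix-loop-helix factors (0.28), BCL2L1 (0.60) and DUSP15, a dual-specificity phosphatase (0.07). Between the last gene before 31 Mb with at least 10 counts and HM13 the annotation holds 8 protein-coding genes. By the choice of these ends none of them had 10 counts, so that stretch was not informative. Genes under 5 CPM that may lie between NANP and that stretch were not examined. BCL2L1 stood at 26.0 and 30.3 CPM in WT, 32.6 and 29.7 with sgKDM5C, 35.0 and 26.8 with sgKDM6A, and 45.9 and 39.1 with sgKMT2B, so that its sgKMT2B libraries lay above all others.

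Members were spread around their median no more widely than protein-coding genes off chromosome 20 around theirs. Against WT, 50.8% of the 199 members and 38.6% of the 10392 protein-coding genes off chromosome 20 lay within 0.2 of their own median log2 change. Against sgKDM5C these shares were 51.8% and 47.8%, and against sgKDM6A 48.7% and 44.5%. The widths of the interquartile ranges were 0.39 and 0.54 against WT, 0.38 and 0.42 against sgKDM5C, and 0.42 and 0.47 against sgKDM6A. For chromosome 20 genes before 31 Mb they were 0.49, 0.40 and 0.39, so against sgKDM6A the members were not the narrower set.

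Each of the 199 members was put in 1 of 3 classes by its libraries. A member followed the shift when both sgKMT2B libraries lay above all 6 others, and 135 members (67.8%) did so, where 13.6% of all 11249 genes of that level meet the same rule. A member escaped when both sgKMT2B libraries lay below all 6 others, or when the fitted change was negative against each other group without a clear separation upwards. Only 3 of the 199 members escaped (1.51%, against 24.1% of all genes), and 61 were between. Of these 61, 38 were higher than all 3 other groups by fitted change. The classes rest on how the libraries separate and not on the size of a change. Without sgKMT2B replicate 2, 5 escaped and 36 were between, but a rule over fewer libraries is easier to meet. With a minimum of 1 CPM in place of 5, 7 escaped. Of the 79 members under 5 CPM, 33 had their highest group mean in sgKMT2B and 16 their lowest. The same shares over all genes under 5 CPM are not given, so nothing is read from these counts.

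The 6 most abundant followers were GNAS, EEF1A2, MYBL2, AHCY, ERGIC3 and YWHAB. GNAS encodes the stimulatory G protein alpha subunit and stood at 1170 and 1319 CPM in WT, 1311 and 1244 with sgKDM5C, 1177 and 1115 with sgKDM6A, and 1593 and 1773 with sgKMT2B. Its 6 other libraries stayed within 1115 to 1319 CPM, and its log2 changes of 0.44 ± 0.09 (SE) against WT, 0.40 against sgKDM5C and 0.55 against sgKDM6A were close to the medians of the members. ERGIC3, a protein of vesicles between the endoplasmic reticulum and Golgi, was at 381 and 342 CPM in WT, 347 and 333 with sgKDM5C, 360 and 328 with sgKDM6A, and 513 and 518 with sgKMT2B. This gene was likewise even across the 6 other libraries, with changes of 0.51, 0.60 and 0.58.

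Other abundant followers were less even across the groups. MYBL2, the proliferation transcription factor B-Myb, stood at 811 and 692 CPM in WT, 974 and 932 with sgKDM5C, 733 and 686 with sgKDM6A, and 1162 and 1183 with sgKMT2B. AHCY, which hydrolyses the S-adenosylhomocysteine that methyltransferases leave behind, was at 969 and 923 CPM in WT, 635 and 613 with sgKDM5C, 664 and 646 with sgKDM6A, and 1070 and 1132 with sgKMT2B. The sgKMT2B libraries of AHCY were thus close to WT (log2 0.22) and far from the other knockouts (0.82 and 0.75). EEF1A2, a translation elongation factor, read 1196 and 914 CPM in WT, 1076 and 1093 with sgKDM5C, 765 and 753 with sgKDM6A, and 1198 and 1370 with sgKMT2B, so that its lower sgKMT2B library and its higher WT library were almost level. YWHAB, a 14-3-3 adaptor protein, was at 431 and 398 CPM in sgKMT2B against 329 to 381 CPM elsewhere. Its log2 changes of 0.19 against sgKDM5C and 0.14 against sgKDM6A were the smallest of the 6 most abundant followers. Against WT its change was 0.29, and AHCY and EEF1A2 differed slightly less.

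A group of 8 members exceeded the shift most, ranked by the smallest of their 3 changes. PLTP, the phospholipid transfer protein of plasma (chr20:45898621-45912155), was at 59.4 and 58.6 CPM in WT, 47.9 and 51.3 with sgKDM5C, 38.4 and 43.3 with sgKDM6A, and 145 and 156 with sgKMT2B. These are log2 changes of 1.35 ± 0.10 (SE), 1.60 and 1.88, far above the medians of the members, and PLTP overlaps CTSA on the other strand, whose log2 change against WT was 0.71. SOX18, a transcription factor of vessel formation (chr20:64047582-64049641), stood at 9.01 and 9.03 CPM in WT, 12.1 and 10.7 with sgKDM5C, 8.32 and 7.50 with sgKDM6A, and 25.2 and 27.4 with sgKMT2B. CEBPB, a bZIP transcription factor of inflammation and differentiation (chr20:50190734-50192689), read 27.1 and 35.1 CPM in WT, 45.6 and 32.2 with sgKDM5C, 47.2 and 29.8 with sgKDM6A, and 88.0 and 85.2 with sgKMT2B. Both of these transcription factors were 2.8-fold or more above WT, at 2.91-fold for SOX18 and 2.80-fold for CEBPB, and their sgKMT2B libraries agreed closely.

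KCNG1, a modifier subunit of voltage-gated potassium channels, was at 35.3 and 37.6 CPM in WT, 24.7 and 24.7 with sgKDM5C, 32.9 and 32.8 with sgKDM6A, and 67.6 and 69.7 with sgKMT2B. CPNE1, a calcium-dependent phospholipid-binding protein, was at 155 and 134 CPM in WT, 126 and 127 with sgKDM5C, 92.8 and 75 with sgKDM6A, and 246 and 266 with sgKMT2B. Each was separated from the other groups by a wide gap. PARD6B, a cell polarity protein, L3MBTL1, a chromatin reader, and EMILIN3, an extracellular matrix glycoprotein, had log2 changes against WT of 0.98, 1.02 and 0.93.

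**Figure D3:**
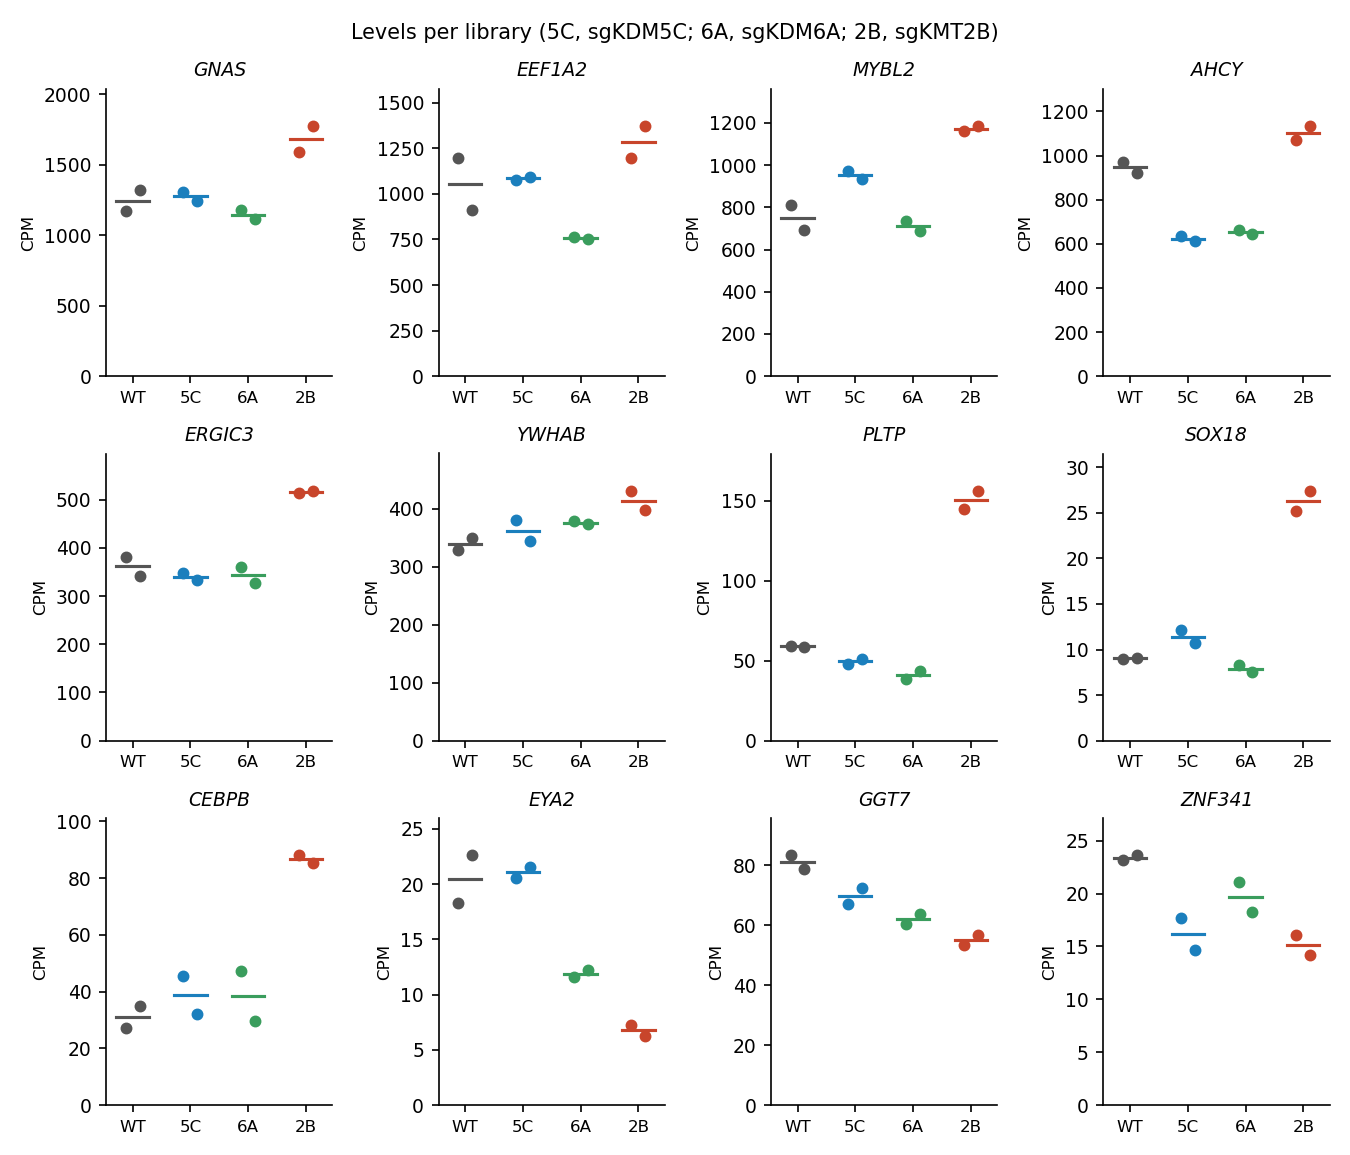
Level in CPM (vertical axes, from 0) of 12 members in each library (points) with the group mean (bars), for WT, sgKDM5C (5C), sgKDM6A (6A) and sgKMT2B (2B). The first 9 genes follow the shift, up to PLTP at 145 and 156 CPM in sgKMT2B, and the last 3, EYA2, GGT7 and ZNF341, have their lowest group mean in sgKMT2B.

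EYA2, GGT7 and ZNF341 were the members that escaped. EYA2 is a transcriptional coactivator and phosphatase that works with homeodomain factors in organ development (chr20:46894624-47188844, plus strand). It stood at 18.3 and 22.6 CPM in WT, 20.6 and 21.6 with sgKDM5C, 11.6 and 12.2 with sgKDM6A, and 7.27 and 6.27 with sgKMT2B. Both sgKMT2B libraries lay under all others, with log2 changes of -1.59 ± 0.17 (SE) against WT, -1.64 against sgKDM5C and -0.82 against sgKDM6A, and sgKDM6A lay between them and the rest.

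GGT7 belongs to the gamma-glutamyltransferase family (chr20:34844720-34872860, minus strand). Its levels were 83.2 and 78.6 CPM in WT, 67.1 and 72.4 with sgKDM5C, 60.5 and 63.7 with sgKDM6A, and 53.2 and 56.8 with sgKMT2B. The groups did not overlap, and the log2 changes of sgKMT2B were -0.56 ± 0.10 (SE), -0.34 and -0.17. ACSS2, an acetyl-CoA synthetase that starts in the opposite direction and overlaps the 5′ end of GGT7, was at 54.8 and 53.4 CPM in WT, 57.2 and 57.5 with sgKDM5C, 45.2 and 40.6 with sgKDM6A, and 75.8 and 73.2 with sgKMT2B. This head-to-head pair thus lay on opposite sides of WT, and reads in the stretch they share cannot be told apart without a strand setting.

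ZNF341, a zinc finger transcription factor known to control STAT3 (chr20:33731657-33792269, plus strand), was the weakest case. Its levels were 23.2 and 23.6 CPM in WT, 17.7 and 14.7 with sgKDM5C, 21.1 and 18.3 with sgKDM6A, and 16.1 and 14.2 with sgKMT2B. The sgKMT2B libraries overlapped those of sgKDM5C, with a log2 change of only -0.10 ± 0.15 (SE), against -0.63 from WT and -0.38 from sgKDM6A. EYA2 and GGT7 were therefore the members with both sgKMT2B libraries below all 6 others, 2 of 199, where 13.9% of all genes of that level meet this rule.

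The neighbours of the escaping genes were mixed. ZNF341 lies between PXMP4, a peroxisomal membrane protein whose changes were 0.03, -0.11 and -0.03 against WT, sgKDM5C and sgKDM6A, and CHMP4B, a membrane scission factor that followed (0.29, 0.27 and 0.20). EYA2 sits inside the longest run of members without a follower, 5 genes from SLC13A3 to ZMYND8 (chr20:46557823-47356889), and every other run held 1 or 2 genes. Within it SLC2A10, a glucose transporter, had changes of 0.21, -0.26 and 1.14, and ZMYND8, a reader of histone marks, had 0.69, -0.26 and 0.54. Each lay below sgKDM5C and above the other groups, unlike EYA2. SLC13A3 (0.317, 0.155 and 0.111) and TP53RK (0.233, 0.54 and 0.302), also in the run, were higher than all 3 groups by fitted change.

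Among members that moved least, chosen after their values were seen, TPD52L2 was the most abundant. This adaptor of vesicle traffic was at 167 and 195 CPM in WT, 183 and 167 with sgKDM5C, 179 and 165 with sgKDM6A, and 187 and 183 with sgKMT2B, with no log2 change beyond 0.11. RTF2, a replication fork factor, had changes of 0.13, 0.14 and 0.03. Members of at least 5 CPM with a fitted change under 0 numbered 17 against WT, 14 against sgKDM5C and 9 against sgKDM6A.

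Grouped by function, the members showed the shift in every list that held at least 5 of them above 5 CPM. The list names are broad, and some lists hold genes of other roles. For example, SLC2A4RG and PKIG were in the replication list and TTPAL in the translation list. HM13 and CHMP4B were in the mitochondria and metabolism list. A count or median therefore describes a list and not a pathway. In sentences on a list, the first number of a median is the log2 change of sgKMT2B against WT, the next against sgKDM5C and the last against sgKDM6A. Of 20 members of the replication, mitosis and cell cycle list, 16 followed and 4 were between, with medians of 0.52, 0.42 and 0.43. The leading members after MYBL2 were CSE1L, an export receptor for importin alpha (271 and 212 CPM in WT, 359 and 339 in sgKMT2B), and MAPRE1, the microtubule plus-end protein EB1 (249 and 240 CPM in WT, 350 and 314 in sgKMT2B). Of 28 members of the chromatin and transcription list, 23 followed and 5 were between, with medians of 0.45, 0.57 and 0.52. ASXL1, a cofactor of the BAP1 deubiquitinase, was at 147 to 173 CPM in the 6 other libraries and at 215 and 209 CPM in sgKMT2B. DIDO1, a PHD finger protein that reads H3K4 methylation, was at 109 to 138 CPM in the others and 173 and 160 CPM in sgKMT2B. NELFCD, a subunit of the complex that pauses RNA polymerase II, was at 119 to 159 CPM in the others and 185 CPM in each sgKMT2B library.

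The protein-making and RNA lists were closest to sgKDM6A. Of 15 members of the translation, folding and protein breakdown list, 8 followed and 7 were between, with medians of 0.35, 0.40 and 0.13. PSMA7, a proteasome subunit, was at 187 and 250 CPM in WT and 288 and 265 CPM in sgKMT2B. DNAJC5, a chaperone of synaptic vesicles, did not separate from sgKDM6A, with 259 and 224 CPM there and 242 and 239 CPM in sgKMT2B. Of 14 members of the RNA processing list, 9 followed, with medians of 0.42, 0.47 and 0.26. PRPF6, a spliceosome component, stood at 171 and 148 CPM in WT, 176 and 165 with sgKDM5C, 220 and 213 with sgKDM6A, and 261 and 253 with sgKMT2B, which is an example of a member already higher in sgKDM6A.

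Of 14 members of the mitochondria and metabolism list 12 followed (medians 0.40, 0.48 and 0.38). Of 19 members of the secretory pathway and glycosylation list 15 followed (0.51, 0.45 and 0.56). RPN2, a subunit of the oligosaccharyltransferase, was an abundant member that did not separate, with 334 and 333 CPM in sgKMT2B and 348 CPM in WT replicate 2. Of 14 members of the signalling and apoptosis list 8 followed (0.30, 0.41 and 0.59). Among these followers PLCG1, a phospholipase downstream of growth factor receptors, stood at 290 and 291 CPM in sgKMT2B against 189 to 233 CPM in the others.

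Channels, receptors and neuronal genes had the highest medians of the lists against WT (0.75) and sgKDM5C (0.96), with 0.67 against sgKDM6A, over only 8 genes, of which 6 followed. RIMS4, a synaptic active zone protein, stood at 107 and 105 CPM in WT, 84.0 and 81.7 with sgKDM5C, 114 and 112 with sgKDM6A, and 184 and 172 with sgKMT2B. STMN3, a microtubule-destabilising neuronal protein, was at 35.2 to 50.5 CPM in the others and at 73.7 and 69.9 CPM in sgKMT2B. Of 9 members of the developmental regulator list 5 followed, 3 were between and EYA2 escaped, with medians of 0.28, 0.56 and 0.80. Of the imprinted genes, GNAS and L3MBTL1 followed, BLCAP was between (82.0 and 78.2 CPM in sgKMT2B, 63.2 to 80.3 CPM elsewhere), and NNAT, inside BLCAP, was at 0.378 to 0.786 CPM. The antimicrobial and protease inhibitor clusters of the arm had 3 members, none of which reached 5 CPM.

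**Figure D4:**
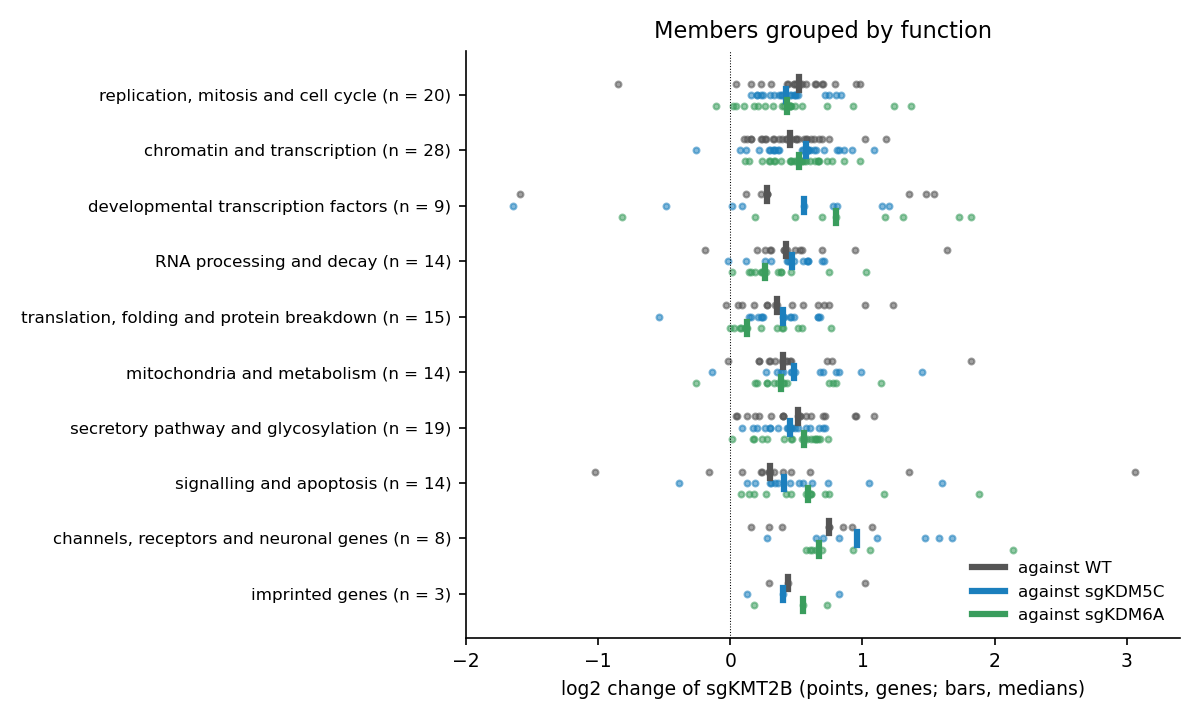
Log2 change of sgKMT2B against WT, sgKDM5C and sgKDM6A (horizontal axis) for members of at least 5 CPM (points) in each functional list (vertical axis, with the number of genes), with the median as a bar. Every median lies above 0, from 0.13 for translation, folding and protein breakdown against sgKDM6A to 0.96 for channels, receptors and neuronal genes against sgKDM5C.

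Genes of the interval that the rule left aside had positive medians as well. The 59 tested genes that are not protein-coding had median log2 changes of 0.31, 0.21 and 0.38 against WT, sgKDM5C and sgKDM6A, with a wider interquartile range of 0.99 against WT. The 4 genes of at least 5 CPM left out by symbol had medians of 0.24, 0.49 and 0.27.

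Contrasts without sgKMT2B did not choose the genes and could be tested. They showed no common shift of the arm, and individual members moved in either direction. Over the 199 members the median log2 change was -0.04 for sgKDM5C against WT, -0.05 for sgKDM6A against WT and -0.03 for sgKDM5C against sgKDM6A. In sgKDM5C against WT the edgeR test called 69 of 245 members (28.2%), 28 higher and 41 lower, where 22.6% of all genes were called, 11.1% higher and 11.5% lower. In sgKDM6A against WT it called 77 (31.4%), 24 higher and 53 lower, where 27.2% of all genes were called, 12.6% higher and 14.6% lower. In sgKDM5C against sgKDM6A it called 54 (22%), 33 higher and 21 lower, where 19.8% of all genes were called, 10.9% higher and 8.86% lower. Pooled over both directions the shares are near those of all genes, while the shares called lower against WT, 16.7% in sgKDM5C and 21.6% in sgKDM6A, were higher than over all genes. The shares called higher were 11.4% and 9.8%. No test was made of these shares. These counts fell when some single libraries were left out, and no share of all genes is given for those fits. The contrasts of sgKDM5C and sgKDM6A against WT share its libraries. Their values stand side by side below and are not counted against each other.

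The members of largest rise were low in WT and higher in every knockout library. NCOA5, a nuclear receptor coactivator (chr20:46060985-46089952), stood at 11.6 and 10.4 CPM in WT, 80.2 and 39.5 with sgKDM5C, 79.8 and 43.8 with sgKDM6A, and 117 and 67.2 with sgKMT2B. Its log2 change was 2.44 ± 0.36 (SE, adjusted p 0.000543) in sgKDM5C and 2.48 ± 0.36 (0.000276) in sgKDM6A against WT, although the replicates of each knockout differed by a wide margin, and without sgKDM5C replicate 1 the first value was 1.84 (adjusted p 0.00282). MOCS3, which activates sulfur carriers for molybdenum cofactor and tRNA modification, was at 12.4 and 8.58 CPM in WT, 27.2 and 19.5 with sgKDM5C, 30.5 and 26.0 with sgKDM6A, and 39.8 and 35.1 with sgKMT2B. It rose by 1.14 ± 0.20 (adjusted p 0.00163) and 1.41 ± 0.20 (adjusted p 0.000241) on the log2 scale.

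FAM217B was at 13.8 and 10.9 CPM in WT, 38.1 and 27.7 with sgKDM5C, 37.1 and 28.3 with sgKDM6A, and 44.6 and 31.3 with sgKMT2B. It rose by 1.41 (adjusted p 0.000705) and 1.40 (adjusted p 0.000455), and it overlaps PPP1R3D on the other strand. ZSWIM3, a zinc finger protein, was at 3.06 and 3.31 CPM in WT, 7.72 and 5.60 with sgKDM5C, 10.3 and 7.32 with sgKDM6A, and 12.5 and 13.3 with sgKMT2B. It rose by 1.07 ± 0.24 (adjusted p 0.00678) and 1.47 ± 0.24 (adjusted p 0.000672), and the former call was lost with sgKDM5C replicate 1 left out (adjusted p 0.0713). WT libraries lay under all 6 knockout libraries for each of these 4 genes, and for NCOA5 the log2 change of sgKMT2B was 3.06 against WT but 0.62 and 0.57 against sgKDM5C and sgKDM6A.

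The members of largest fall included signalling and receptor genes. PREX1, an exchange factor for the GTPase Rac, was at 37.1 and 46.7 CPM in WT, 14.7 and 17.8 with sgKDM5C, 12.1 and 15.1 with sgKDM6A, and 18 and 23.2 with sgKMT2B. It fell by 1.36 ± 0.18 (adjusted p 0.000269) in sgKDM5C and by 1.62 ± 0.18 (adjusted p 4.51e-05) in sgKDM6A, and it was one of the members below WT in sgKMT2B. PROCR, the endothelial protein C receptor, was at 75.5 and 87.1 CPM in WT, 33.7 and 36.2 with sgKDM5C, 54.9 and 60.9 with sgKDM6A, and 56.1 and 64.0 with sgKMT2B. It fell by 1.22 ± 0.12 (adjusted p 4.29e-05) and 0.49 ± 0.12 (adjusted p 0.00819), the latter call being lost without WT replicate 2 (adjusted p 0.0574) or sgKDM6A replicate 1 (adjusted p 0.0896). PPP1R16B, a regulatory subunit of protein phosphatase 1, stood at 31.8 and 40.4 CPM in WT, 15.0 and 15.7 with sgKDM5C, 18 and 25.2 with sgKDM6A, and 17.6 and 22.5 with sgKMT2B. It fell by 1.23 (adjusted p 0.000696) and 0.74 (adjusted p 0.00945), the latter call being lost without WT replicate 2 (adjusted p 0.083) or sgKDM6A replicate 1 (adjusted p 0.111).

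CHRNA4, a nicotinic acetylcholine receptor subunit, was at 16.4 and 13.0 CPM in WT, 5.17 and 7.79 with sgKDM5C, 3.77 and 4.97 with sgKDM6A, and 17.5 and 21.2 with sgKMT2B. It fell by 1.19 ± 0.22 (adjusted p 0.00251) in sgKDM5C and by 1.75 ± 0.23 (adjusted p 0.000147) in sgKDM6A against WT. Its sgKMT2B libraries lay nearer to WT than to the other knockouts.

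**Figure D5:**
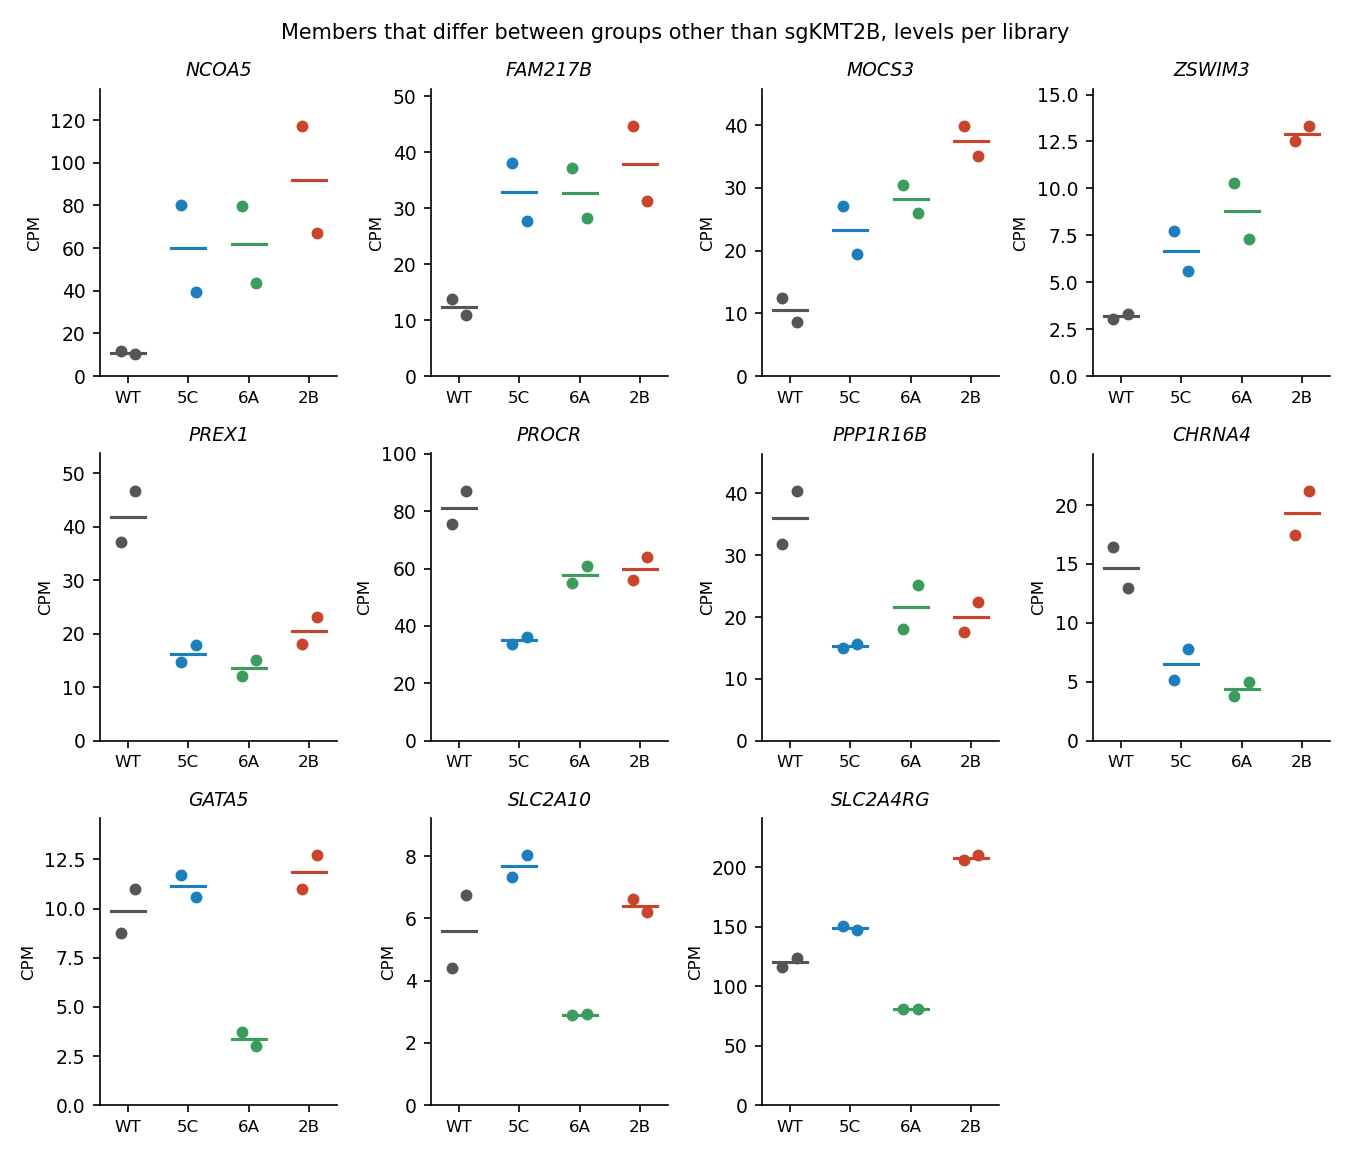
Level in CPM (vertical axes, from 0) of 11 members named from the contrasts without sgKMT2B, in each library (points) with the group mean (bars), for WT, sgKDM5C (5C), sgKDM6A (6A) and sgKMT2B (2B). NCOA5, FAM217B, MOCS3 and ZSWIM3 are lowest in WT, and GATA5, SLC2A10 and SLC2A4RG are lowest in sgKDM6A.

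Of the 13 tested members of the developmental regulator list, 6 fell in sgKDM6A against WT, where 14.6% of all genes were called lower. These were the transcription factors GATA5, TFAP2C, SALL4 and BHLHE23, the coactivator EYA2 and the secreted ligand BMP7, of which SALL4 and BHLHE23 had means of only 2.44 and 0.796 CPM. The median log2 change of the list's 9 members of at least 5 CPM was -0.22, against 0.01 over all genes of that level. In sgKDM5C against sgKDM6A 6 members were called higher (10.9% of all genes), with a list median of 0.69 against -0.04 over all genes. In sgKDM5C against WT 2 members of the list rose and 2 fell, where 11.1% of all genes were called higher and 11.5% lower. GATA5, a zinc finger factor of heart and gut development, was at 8.76 and 11 CPM in WT, 11.7 and 10.6 with sgKDM5C, 3.73 and 3.00 with sgKDM6A, and 11 and 12.7 with sgKMT2B. It fell by 1.55 ± 0.21 (adjusted p 0.000158) in sgKDM6A against WT, and the log2 difference between sgKDM5C and sgKDM6A was 1.73 ± 0.20 (adjusted p 5.62e-05). EYA2, the escaping gene with the largest distance from WT, was called in contrasts that use the same 6 libraries it was classed against and share sgKDM6A with each other, at -0.77 ± 0.16 (adjusted p 0.00317) in sgKDM6A against WT and 0.82 ± 0.16 (adjusted p 0.00246) in sgKDM5C against sgKDM6A, while sgKDM5C against WT gave 0.05 ± 0.16 (adjusted p 0.851).

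The other escaping genes moved less. GGT7 fell by 0.38 ± 0.10 (adjusted p 0.0142) in sgKDM6A against WT, a call lost without sgKDM6A replicate 1 (adjusted p 0.119) or replicate 2 (adjusted p 0.0523), and gave -0.22 ± 0.10 (adjusted p 0.147) in sgKDM5C. ZNF341 fell by 0.53 ± 0.15 (adjusted p 0.0241) in sgKDM5C against WT, a call lost when WT replicate 1 (adjusted p 0.0559), WT replicate 2 (adjusted p 0.0679) or sgKDM5C replicate 2 (adjusted p 0.157) was left out, and gave -0.25 ± 0.15 (adjusted p 0.239) in sgKDM6A. Both genes thus had WT as their highest group.

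SLC2A10 stood at 4.42 and 6.76 CPM in WT, 7.32 and 8.02 with sgKDM5C, 2.89 and 2.93 with sgKDM6A, and 6.63 and 6.19 with sgKMT2B. The log2 difference of sgKDM5C from sgKDM6A was 1.40 ± 0.24 (adjusted p 0.00106), and the fall of 0.92 ± 0.24 (adjusted p 0.0132) in sgKDM6A against WT was lost without WT replicate 2 (adjusted p 0.128), sgKDM6A replicate 1 (adjusted p 0.0638) or sgKDM6A replicate 2 (adjusted p 0.0528). ACTR5, a subunit of the INO80 remodeller, had less RNA in sgKDM5C than in sgKDM6A, at a log2 change of -0.69 ± 0.16 (adjusted p 0.00795), a call lost without sgKDM5C replicate 2 (adjusted p 0.0685) or sgKDM6A replicate 1 (adjusted p 0.0617). TGM2, a transglutaminase, gave -0.68 ± 0.20 (adjusted p 0.028) in the same contrast, lost without sgKDM5C replicate 2 (adjusted p 0.232), sgKDM6A replicate 1 (adjusted p 0.11) or sgKDM6A replicate 2 (adjusted p 0.0848).

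Of the 19 tested members of the signalling and apoptosis list, 9 fell and NCOA5 rose in sgKDM6A against WT, where 14.6% of all genes were called lower and 12.6% higher, with a median log2 change of -0.24 over the 14 of at least 5 CPM against 0.01 over all genes. PLCG1 stood at 228 and 233 CPM in WT and at 189 and 191 CPM in sgKDM6A (log2 -0.28 ± 0.08, adjusted p 0.0223), and its call was lost with WT replicate 2 (adjusted p 0.0532), sgKDM6A replicate 1 (adjusted p 0.137) or sgKDM6A replicate 2 (adjusted p 0.105) left out. CD40, a receptor of the tumour necrosis factor family, fell from 22.3 and 24.0 CPM to 12.7 and 14.6 CPM. In sgKDM5C against WT 5 of these members fell and 2 rose, where 11.5% of all genes were called lower and 11.1% higher. Of 15 tested members of the mitochondria and metabolism list, 5 fell and 2 rose in sgKDM5C, and 5 fell and 4 rose in sgKDM6A. Over all genes, 22.6% and 27.2% were called in either direction. Among them AHCY fell by 0.60 ± 0.08 (adjusted p 0.000238) and 0.53 ± 0.08 (adjusted p 0.000321), and ADA, adenosine deaminase, stood at 69.0 and 76.0 CPM in WT, 31.1 and 34.2 with sgKDM5C, 38.2 and 42.8 with sgKDM6A, and 85.9 and 92.1 with sgKMT2B. The replication and cell cycle list (3 rose and 2 fell of 21 in sgKDM5C, 2 rose and 2 fell in sgKDM6A) and the chromatin list (2 rose and 4 fell of 28, then 1 rose and 3 fell) stand beside the same shares of all genes, 22.6% in sgKDM5C and 27.2% in sgKDM6A.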

How the data were processed

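Libraries were made from poly(A) RNA with random hexamer priming and read from both ends, per the labels' protocols. The authors deposited raw read counts per Ensembl gene, made with STAR and HTSeq 0.11.2 on GRCh38 per the submitters' processing notes. With the annotation and strand setting not given in the sources used here, overlapping genes (128 of 278 members) are uncertain. Coordinates and biotypes came from GENCODE 29. Counts were fitted with edgeR 4.0.16 (R 4.3.3; glmQLFit, glmQLFTest, TMM factors, filterByExpr by group) on all 8 libraries with 1 coefficient per group. P-values were adjusted with Benjamini-Hochberg over 17527 genes, with calls at an adjusted p under 0.05, and 245 members passed the filter. Levels are TMM-scaled CPM, fold values are fitted. Library medians used a pseudocount of 0.5 CPM. A run of the fit on simulated counts held no regional shift and no correlated replicate differences, so nothing is read from it. Replicates differed by more than sampling noise (chi-square per degree of freedom 8.207 to 16.9).

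The members and the gene lists were chosen with earlier results of these data known. Genes are named by rule: the 6 followers of highest level, the 8 largest changes with and against the shift, the 4 largest called rises and falls in each contrast without sgKMT2B, up to 4 members of each list by level, the imprinted genes, and the 4 genes on either side of 31 Mb. Genes outside the rule (ACSS2, PXMP4, ZMYND8, TPD52L2, RTF2, CTSA, SLC13A3, TP53RK, ADA, CD40 and the called members of 1 list) were chosen after their values were seen. Alternatives were DESeq2 1.42.0, other scaling and filters, a replicate block, the compared groups alone and leaving out each library. A member that the rule reaches is not reported here.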

Additional observations from a re-analysis of the deposited data

Results flagged for a closer look

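SLC2A4RG, a zinc finger transcription factor that regulates the glucose transporter gene SLC2A4, is listed because it rose in sgKDM5C and fell in sgKDM6A, both against the same WT libraries. It stood at 116 and 124 CPM in WT, 151 and 147 with sgKDM5C, 80.9 and 80.5 with sgKDM6A, and 206 and 210 with sgKMT2B, with no overlap between the groups. The difference between sgKDM5C and sgKDM6A was itself tested, with a log2 value of 0.88 ± 0.09 (SE, edgeR adjusted p 1.62e-05). Against WT it fell by 0.57 in sgKDM6A (adjusted p 0.00052) and rose by 0.31 in sgKDM5C (adjusted p 0.0222). The latter call missed the threshold without WT replicate 1 (adjusted p 0.0657), without sgKDM5C replicate 1 (adjusted p 0.135), without sgKDM5C replicate 2 (adjusted p 0.085) and when only the 2 groups were fitted (adjusted p 0.0707).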

How the results depend on the processing

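With 1 library left out at a time, the median log2 change of members in sgKMT2B ran from 0.356 to 0.414 against WT, from 0.42 to 0.506 against sgKDM5C and from 0.392 to 0.485 against sgKDM6A. The members called ran from 73 to 124 in sgKMT2B against WT, from 31 to 64 in sgKDM5C against WT, from 38 to 82 in sgKDM6A against WT and from 27 to 43 in sgKDM5C against sgKDM6A. Shares of all genes called in these fits are not given, so nothing about the members is read from these ranges of calls. Followers ran from 136 to 158, members between from 36 to 59 and escaping members from 2 to 5. With all 8 libraries these counts were 135, 61 and 3. The rule for a follower is easier to meet with fewer libraries, so these ranges do not measure robustness. With a minimum of 1 CPM in place of 5, 7 members escaped. Fewer libraries leave fewer residual degrees of freedom, and a group reduced to 1 library is assumed to vary like the others. Scaling, filters, DESeq2 and the compared groups alone kept every median of the sgKMT2B contrasts between 0.386 and 0.467. Starting the interval at 35 Mb gave 0.415 against WT.

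Replicate differences correlated at -0.104 to 0.0225 between WT and the knockouts and at 0.322 to 0.497 among the knockouts, so same-numbered knockout libraries deviated together and those of WT did not. The labels name no shared batch or day behind a number, and no pairing was used in the values reported. With the replicate block, 78 members were called in sgKDM5C against WT, 93 in sgKDM6A against WT and 69 in sgKDM5C against sgKDM6A. The block gave 141, 148 and 144 in sgKMT2B against WT, sgKDM5C and sgKDM6A. Shares of all genes called with the block are not given, so nothing about the members is read from these counts. Depth limited the 79 members under 5 CPM, of which 46 passed the filter.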

Other observations

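A set of members that the rule for named genes did not reach, chosen after their values were seen, shared the pattern of NCOA5. SRSF6, a splicing factor, was at 42.8 and 41.3 CPM in WT, 104 and 57.3 with sgKDM5C, 123 and 79.6 with sgKDM6A, and 163 and 99.8 with sgKMT2B. TTPAL, a lipid-binding protein, was at 19.8 and 20.6 CPM in WT, 48.3 and 32.9 with sgKDM5C, 49.6 and 40.7 with sgKDM6A, and 51.3 and 43.7 with sgKMT2B. WT lay below all knockout libraries for both genes, and in each knockout replicate 1 was the higher library.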
